A study of Rattus norvegicus and Bos taurus with 12 samples.

Results

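Macrophage and myeloid marker genes were followed in both experiments of the study. The set holds 10 genes, Lyz2, Aif1, Cd68, Cd14, Tyrobp, Fcer1g, Laptm5, Cd163, Mrc1 and Ptprc, and each was looked up by its symbol, in any case, in the table of adult rat ventricular myocytes (ARVM, 7052 genes) and in the table of bovine cardiac fibroblasts (Cfib, 2115 genes). Of the 10, 9 were listed for ARVM and 5 for Cfib. Each table holds only genes that its authors selected, with expression above 1 in a group and a p-value under 0.05 in this contrast, so a gene that is not listed may be unchanged or undetected, and the listing of a member is not independent evidence that it changed.

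The rat groups were 3 libraries of freshly isolated ARVM (con4, con5 and con6), untreated, and 3 libraries of ARVM kept for 7 days in conditioned media from Cfib of calves with pulmonary hypertension (PH-CM ARVM, libraries ha2, ha209 and ha211), all from healthy adult Sprague Dawley rats. The bovine groups were 3 libraries of Cfib from control calves (CO) housed at the altitude of Denver and 3 from calves that developed pulmonary hypertension (PH) under reduced atmospheric pressure, all cultured at low passage from the right ventricle of neonatal calves. The treatment field of the sample labels instead speaks of cow serum from low or high altitude for all 12 libraries, while the group names used below follow the paper. The myocytes were obtained by collagenase digestion of whole hearts with filtering through a mesh, with no sort for a cell type, and in the rat contrast the effect of the media and of 7 days in culture cannot be told apart. Each Cfib group is described as separate animals. For ARVM nothing states that each library is a separate animal, so their p-values measure the spread between libraries, which may be technical.

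Macrophages are phagocytes of the innate immune system, and the heart holds a resident population between its myocytes. They engulf particles and digest them in lysosomes, sense bacterial products and antibody complexes through surface receptors, and pass those signals on through small adaptor proteins that carry an immunoreceptor tyrosine-based activation motif (ITAM). None of the 10 genes belongs to macrophages alone. Cd14 and Laptm5 are known from other cells too, Tyrobp and Fcer1g are shared with natural killer and mast cells, and Ptprc is found on nearly all leukocytes.

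In PH-CM ARVM every one of the 9 listed members was higher than in freshly isolated ARVM, with log2 fold changes from 2.53 for Cd14 to 7.26 for Lyz2 and a median of 4.89. All 9 passed the threshold (limma on log2(value + 1), Benjamini-Hochberg adjusted p under 0.05 over the 7052 listed genes), where 97.6% of all listed genes passed, 53.9% as higher and 43.7% as lower. All 9 also passed with edgeR, as did 96.6% of the listed genes, and with DESeq2, as did 94.6%. The count itself thus sets the members apart little, and the median over all listed genes was 0.37. All 9 members rose by 2 or more on the log2 scale, which 20.7% of the listed genes did. The groups did not overlap for any member, as for 100% of the listed genes. In bulk RNA more cells of a type and more RNA per cell cannot be told apart. The values are normalised read counts, not scaled by gene length, so levels are compared between groups and not between genes.

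Lyz2 encodes lysozyme, the secreted and lysosomal enzyme that cuts bacterial cell walls. Its normalised read counts were 55.4, 26.8 and 40.3 in con4, con5 and con6, and 5906, 5075 and 7730 in ha2, ha209 and ha211. The lowest PH-CM library therefore lay far above the highest freshly isolated one, and the means of 40.8 ± 14.3 (SD, n = 3) and 6237 ± 1358 differed 153-fold. The log2 fold change came to 7.26 (SE 0.26, limma adjusted p = 2.79e-07), and 0.482% of the listed genes had a larger one. Cd68, a heavily glycosylated protein of the lysosomal membrane that is widely used to stain macrophages, had 19.0, 61.1 and 35.1 against 398, 386 and 443. Its freshly isolated libraries were spread over a wider relative range than its PH-CM libraries, and its log2 fold change came to 3.53 (SE 0.39, limma adjusted p = 7.80e-05). Laptm5, a lysosomal transmembrane protein of blood-derived cells, had 20.6, 13.9 and 18.6 against 601, 529 and 733, a change of 5.06 on the log2 scale (SE 0.24, limma adjusted p = 9.65e-07).

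The ITAM adaptors rose as well. Tyrobp, also called DAP12, pairs with receptors such as TREM2, and its normalised read counts were 12.7, 11.8 and 26.9 in freshly isolated and 560.4, 327 and 684 in PH-CM ARVM. Fcer1g, the common gamma chain of Fc receptors for antibodies, had 11.1, 17.1 and 17.6 against 215, 148 and 284. The log2 fold change was 4.89 for Tyrobp (SE 0.40, limma adjusted p = 1.52e-05) and 3.71 for Fcer1g (SE 0.33, limma adjusted p = 2.69e-05). For both adaptors library ha209 was the lowest and library ha211 the highest of the PH-CM libraries.

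Among the surface receptors, Cd14, the co-receptor that hands bacterial lipopolysaccharide to Toll-like receptor 4, changed least. It had normalised read counts of 28.5, 48.2 and 67.1 in freshly isolated and 304, 214 and 291 in PH-CM ARVM, so that even the freshly isolated library with the most stood well below the PH-CM libraries. Its log2 fold change came to 2.53 (SE 0.33, limma adjusted p = 0.000209). Mrc1, the mannose receptor of tissue macrophages, had 17.4, 34.3 and 20.7 against 324, 282 and 388, a change of 3.77 on the log2 scale (SE 0.30, limma adjusted p = 1.35e-05). Cd163, the hemoglobin scavenger receptor, was the 1 member that the ARVM table did not list. Ptprc encodes CD45, the tyrosine phosphatase on the surface of leukocytes, and had 11.1 in con4, no read in con5 and con6, and 87.0, 74.2 and 139 in PH-CM ARVM. Its 7 reads in freshly isolated ARVM came from that 1 library, and its log2 fold change of 5.41 (SE 0.94, limma adjusted p = 0.000903) became 6.61 without con4 and 4.81 without either of the others.

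Aif1, which encodes the calcium-binding, actin-bundling protein Iba1 of macrophages and microglia, was nearly absent from freshly isolated ARVM. It had no read in con4 and con5 and 2 reads in con6, a normalised read count of 2.07, whereas PH-CM ARVM had 166, 104 and 232 (613 reads in all). The ratio of the pooled reads was 212, with a 95% interval from 58.4 to 1754 that covers counting error only. On the log2(value + 1) scale the change was 6.78 (SE 0.55, limma adjusted p = 1.46e-05). For Aif1 and Ptprc this value depends on the pseudocount, at 9.15 and 7.65 with 0.1 and 3.99 and 3.06 with 10. The plot of members by library shows the 9 genes together.

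**Figure D1:**
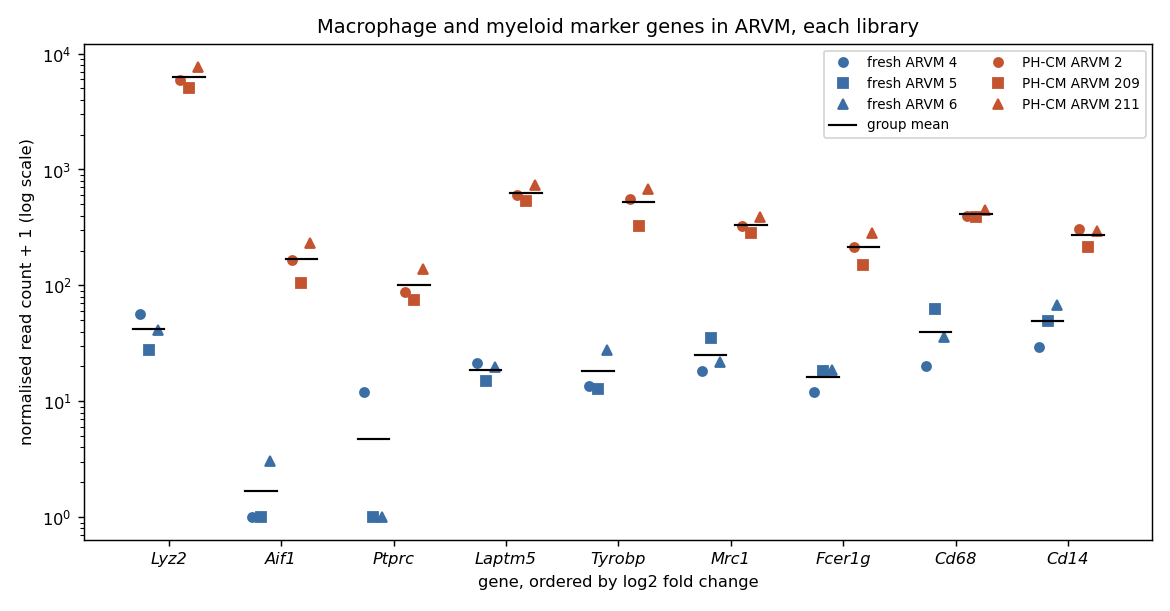
Normalised read count + 1 (log axis) of the 9 listed marker genes in each library of freshly isolated (blue) and PH-CM ARVM (red), with group means as bars and genes ordered by log2 fold change. The red points lie above the blue points for every gene, and Aif1 and Ptprc have freshly isolated libraries without a read.

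Summed over the 9 members, the freshly isolated libraries had 176 to 228 normalised read counts and the PH-CM libraries 7138 to 10924. Most of the PH-CM sum came from Lyz2. The members did not change by the same factor, which was read from their ratio to Cd68 within each library, a reference chosen after the values were seen. The Lyz2-to-Cd68 ratio ran from 0.439 to 2.92 in freshly isolated and from 13.2 to 17.4 in PH-CM ARVM, and the Laptm5-to-Cd68 ratio from 0.228 to 1.08 and from 1.37 to 1.65. The Cd14-to-Cd68 ratio moved the other way, from 0.789 to 1.91 down to 0.555 to 0.764. The Tyrobp (0.193 to 0.765 against 0.848 to 1.54) and Aif1 ratios (0 to 0.0588 against 0.268 to 0.523) were higher in PH-CM ARVM without overlap. For Mrc1 (0.561 to 0.917 against 0.732 to 0.876), Fcer1g (0.281 to 0.583 against 0.383 to 0.639) and Ptprc (0 to 0.583 against 0.192 to 0.313) the ratio ranges of the groups overlapped. With 3 libraries a group the smallest two-sided p of an exact permutation test is 0.1, so only the ranges are given.

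The PH-CM libraries differed from each other in a shared order. Library ha209 was the lowest for 9 of 9 members and library ha211 the highest for 8 of 9, the exception being Cd14, for which library ha2 was the highest. The spread was wide for Tyrobp, at 0.624 of the group mean in library ha209 and 1.31 in library ha211, and narrow for Cd68, at 0.943 and 1.08. Among all 3802 genes that were higher in PH-CM ARVM by limma, library ha209 was the lowest in 53.0% and library ha211 the highest in 50.9%. Among the 78 such genes of the myeloid pathway lists the shares were 78.2% and 74.4%, and of the 9 fibroblast markers library ha209 was the lowest for 5 and library ha211 the highest for 8. This order was noticed after the values were seen and was not tested.

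**Figure D2:**
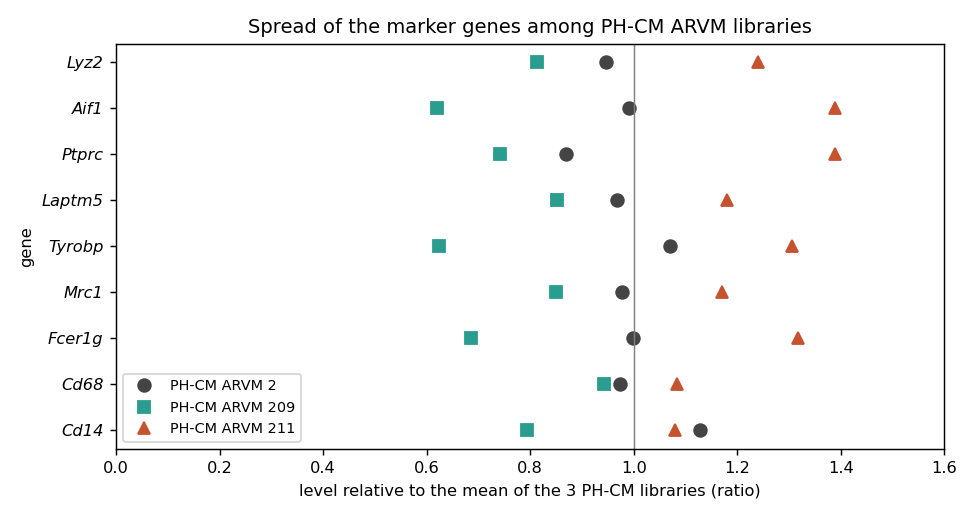
Level of each listed marker gene in the 3 PH-CM ARVM libraries, as a ratio to their mean (vertical line at 1, axis from 0). Library ha209 (squares) is the lowest for all 9 genes and library ha211 (triangles) the highest for all but Cd14.

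Known promoters of myeloid genes often lack a TATA box and are bound near the start of transcription by PU.1, a factor encoded by Spi1 that recognizes a purine-rich core, GAGGAA. The RefSeq promoter table of the rat assembly GRCr8 matched 7 members. In the 250 bases before the start, the core was found on either strand in 6 of the 7 (Lyz2, Cd68, Cd14, Laptm5, Mrc1 and Ptprc, but not Cd163), against 23.2% of 27457 promoters in the table and 22.7% of the 5282 matched to listed ARVM genes. A match of these 6 letters is no evidence of binding, and overlap with other motifs was not examined. The sequences of 5 members that rose are shown to place the core, which is in capitals, as GAGGAA on the strand of the gene or TTCCTC on the opposite strand, each written 5′ to 3′ along the gene and ending at the base before its start.
Lyz2, chr7:54798012-54798261, minus strand: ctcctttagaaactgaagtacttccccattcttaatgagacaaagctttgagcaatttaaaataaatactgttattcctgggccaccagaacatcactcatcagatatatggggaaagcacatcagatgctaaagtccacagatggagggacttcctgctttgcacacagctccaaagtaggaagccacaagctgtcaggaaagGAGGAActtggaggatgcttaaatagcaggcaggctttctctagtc
Laptm5, chr5:148371630-148371879, plus strand: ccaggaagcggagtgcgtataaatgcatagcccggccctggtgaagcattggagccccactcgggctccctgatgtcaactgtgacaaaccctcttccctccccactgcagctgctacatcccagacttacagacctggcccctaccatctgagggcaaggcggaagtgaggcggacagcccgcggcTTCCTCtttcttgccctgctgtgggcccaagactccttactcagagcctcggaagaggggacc
Cd68, chr10:54882442-54882691, minus strand: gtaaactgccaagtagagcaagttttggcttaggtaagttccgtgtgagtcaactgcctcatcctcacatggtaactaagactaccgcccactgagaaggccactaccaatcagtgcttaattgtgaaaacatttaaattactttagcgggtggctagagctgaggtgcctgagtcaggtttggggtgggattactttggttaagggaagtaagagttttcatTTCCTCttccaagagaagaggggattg
Mrc1, chr17:82157475-82157724, plus strand: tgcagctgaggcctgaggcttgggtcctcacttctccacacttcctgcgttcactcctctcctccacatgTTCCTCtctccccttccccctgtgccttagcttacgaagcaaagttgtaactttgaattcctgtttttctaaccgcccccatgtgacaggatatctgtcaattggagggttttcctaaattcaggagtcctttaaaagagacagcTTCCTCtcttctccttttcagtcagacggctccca
Ptprc, chr13:52259747-52259996, minus strand: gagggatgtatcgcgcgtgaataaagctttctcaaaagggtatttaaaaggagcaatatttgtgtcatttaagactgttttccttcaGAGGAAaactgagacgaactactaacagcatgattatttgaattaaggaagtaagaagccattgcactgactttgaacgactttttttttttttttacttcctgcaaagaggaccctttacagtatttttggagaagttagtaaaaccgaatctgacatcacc
The core begins 46 bases before the start in Lyz2, 63 in Laptm5, 27 in Cd68, 180 and 35 in Mrc1 and 163 in Ptprc. Spi1 itself, named after its value was seen, had normalised read counts of 25.3, 9.64 and 3.10 in freshly isolated and 49.2, 44.0 and 46.5 in PH-CM ARVM, a change of 2.18 on the log2 scale (SE 0.63, limma adjusted p = 0.0105).

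The partners of these genes were counted in 10 lists of 139 genes in all. The ARVM table listed 90 of them, of which 78 passed the threshold as higher and 12 as lower in PH-CM ARVM. Of all listed ARVM genes 53.9% passed as higher and 43.7% as lower. The adaptors Tyrobp and Fcer1g signal for receptors of the ITAM list, with 15 of 23 genes listed. Of these 13 were higher and 2 lower, and their median was 3.27 on the log2 scale. Trem2, a lipid-sensing receptor that needs Tyrobp, had 5.14 ± 4.45 (SD, n = 3) normalised read counts against 301 ± 102, and its log2 fold change of 6.10 became 5.06 without con6. The Fc receptor genes Fcgr2a and Fcgr3a had log2 fold changes of 6.94 (7.78 without con4) and 4.82 (5.87 without the same library), and as close relatives they may share reads. Fcgr2a had 3 reads in freshly isolated ARVM, and its ratio of pooled reads was 193, with a 95% counting interval from 65.6 to 935. The 2 genes that fell, named after their values were seen, were Inpp5d (−0.91) and Lyn (−0.47), a phosphatase that restrains and a kinase that can start these signals.

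Receptors for scavenging and tissue residence, the class of Mrc1 and Cd163, had 7 of 16 genes listed, 5 higher and 2 lower (median 3.34). The summed level of these 7 was lower, at 30556 to 32703 in freshly isolated and 18417 to 27747 in PH-CM ARVM. Mertk, named after its value was seen, fell the most (−1.38). Msr1, the class A scavenger receptor, had 5.48 ± 5.54 (SD, n = 3) against 290.4 ± 73.3, and its log2 fold change of 6.07 ran from 5.02 without con6 to 6.82 without con4. Folr2, a folate receptor of resident macrophages, was without a read in the con libraries and was at least 53.3-fold higher in PH-CM ARVM, against a floor of 3 reads over the group. Clec10a, a galactose-binding lectin, had a log2 fold change of 5.18, which was 6.31 without con5, the only freshly isolated library with reads of it. Resident macrophage genes such as Lyve1, Timd4 and Vsig4 were not listed, as Cd163 was not.

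The lists nearest to the members' digestive and sensing roles moved mostly the same way. The phagocyte oxidase, which makes superoxide in the phagosome, had 6 of 6 genes listed, 5 higher and 1 lower. Its catalytic subunit gene Cybb had a log2 fold change of 7.24 (8.27 without con5), Ncf4 had 5.27 (4.48 without con6) and the GTPase gene Rac2 had 4.63. Lysosomal genes of phagocytes, the setting of Cd68, Laptm5 and Lyz2, had 8 of 11 listed and all 8 higher, with a median of 1.11. The cathepsin gene Ctss had 5.73 (4.69 without con6), Gpnmb, a glycoprotein of lysosome-rich cells, had 4.13 and the collagen-cleaving cathepsin gene Ctsk had 2.58. The pathway of Cd14 had 8 of 15 genes listed, all 8 higher with a median of 1.80. Tlr8 had 3.29 (2.31 without con4 and 3.94 without con5), the adaptor gene Ticam2 had 3.16 (3.85 without con4 and 1.96 without con6), and Lbp, whose product carries lipopolysaccharide to CD14, had 2.94 (3.61 without con4).

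Leukocyte integrins and cytoskeletal genes, the setting of Ptprc and Aif1, had 12 of 17 genes listed, 11 higher and 1 lower (median 3.01). Itgb2, the beta chain of the leukocyte integrins, had a log2 fold change of 6.23 (6.85 without con4 and 5.15 without con6). Itga4 was without a read in the con libraries and was at least 60.0-fold higher, and the tetraspanin gene Cd53 had 5.13 (5.86 without con4 and 4.06 without con5). All 6 listed genes of 11 for chemoattractant receptors and complement C1q were higher, with a median of 4.54. C1qc, a chain of the C1q molecule that tags debris for removal, had normalised read counts of 0, 0 and 5.17 in freshly isolated and 367, 306 and 341 in PH-CM ARVM, a log2 fold change of 7.53 (8.40 without con6). C1qa had 4.60, and C5ar1, the receptor for the complement fragment C5a, had 5.72 (6.56 without con4). C5ar1 had 3 reads in freshly isolated ARVM, with a ratio of pooled reads of 79.3 and a 95% counting interval from 26.9 to 386.

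Not every myeloid gene rose. Of the genes of the CSF1 and CSF2 axis, a list that also holds Csf3, 7 of 9 were listed, 4 higher and 3 lower (median 0.59). The receptor gene Csf1r rose from 48.1 ± 10.5 (SD, n = 3) to 266 ± 50.5 normalised read counts (log2 fold change 2.45), while the cytokine genes Csf3 and Csf2 fell (−3.38 and −2.40), with Csf2 at −1.63 without ha2. Of the myeloid transcription factors 8 of 13 were listed, 7 higher and 1 lower (median 1.68). Cebpa, a factor of granulocyte and monocyte development, had 2.54 and Maf had 2.24, and Pparg, a regulator of lipid handling, fell (−2.33), with −2.95 without ha209. Of the macrophage products 13 of 18 were listed, 11 higher and 2 lower (median 2.19). The elastase gene Mmp12 was without a read in the con libraries and was at least 635-fold higher, the arginase gene Arg1 had a log2 fold change of 6.92 (7.97 without con4) and the chemokine gene Pf4 had 4.76. The 2 products that fell, named after their values were seen, were Il6 (−3.16) and Nos2 (−1.94).

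Markers of other cells changed as well, some up like the members and some down, and their part in the members' change was not tested. All 9 fibroblast markers were listed and higher (median 6.47). Their summed normalised read counts were 1435 to 1959 in freshly isolated and 86988 to 129837 in PH-CM ARVM, with log2 fold changes of 9.95 for Thy1 (10.84 without con5) and 8.07 for Col1a1. Of 10 cardiomyocyte markers 9 were listed, 8 lower and 1 higher, and their summed level was 1067700 to 1104930 in freshly isolated and 152081 to 183708 in PH-CM ARVM. The log2 fold change was −5.58 for Myh6, the fast cardiac myosin heavy chain, and −5.44 for Myl2, and the 9 markers of the labelled cell type were present in both groups. All 6 proliferation markers were higher (Cdk1 7.03, with 7.68 without con4 and 5.88 without con6, and Top2a 6.57). Of the smooth muscle and pericyte markers 7 of 9 were higher (Cnn1 6.91, with 5.99 without con4, and Tagln 6.35) and 2 lower.

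Most of the remaining blood and vessel markers that were listed were lower in PH-CM ARVM. Those not listed may be unchanged or undetected. Of 11 endothelial markers 10 were lower and 1 higher (Vwf −2.89 and Tek −2.43). Of 7 erythroid markers 4 were listed, all lower, and Hbb and Hba1 had no PH-CM read, which makes Hbb at least 1287-fold and Hba1 at least 1274-fold lower. None of 8 neutrophil, 9 T and NK cell and 6 mast cell markers was listed. Of 6 B cell markers Cd79b alone was listed, at 7.91, 16.1 and 8.26 in freshly isolated and 0, 0 and 4.23 in PH-CM ARVM (log2 fold change −2.69, −3.49 without ha211, with an adjusted p of 0.0531 by DESeq2). Adgre1, the F4/80 antigen of rodent macrophages, named after its value was seen, had 44.3, 21.4 and 78.5 against 448, 556 and 865.

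**Figure D3:**
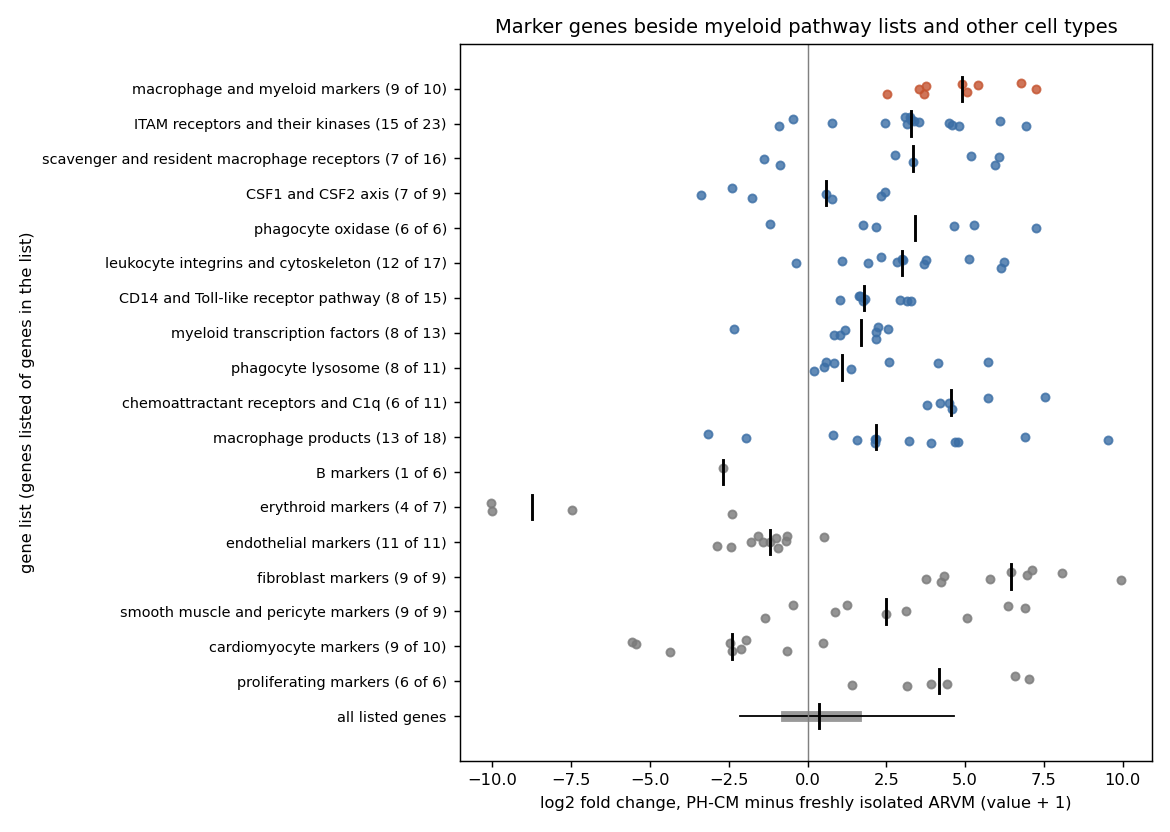
Log2 fold change (PH-CM minus freshly isolated ARVM, of value + 1) of the listed genes of each list, with each point a gene, bars for medians, the members in red, myeloid pathway lists in blue and other cell types in grey. The last row gives the median, quartiles and 5th to 95th percentile of all listed genes, and the members (median 4.89) lie between the fibroblast (6.47) and cardiomyocyte markers (−2.38).

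In Cfib 5 members were listed, and they did not move in one direction. FCER1G, TYROBP, CD68 and LAPTM5 were higher and CD14 was lower in PH Cfib, and all 5 passed the limma threshold, as 97.5% of the 2115 listed genes did (58.2% higher and 39.4% lower). The median log2 fold change of the 5 was 0.51, against 0.33 over all listed genes. A rise of 2 or more on the log2(value + 1) scale, which 4.68% of the listed genes had, was reached by no member, but TYROBP was at 2.16 with a pseudocount of 0.1. LYZ2, AIF1, CD163, MRC1 and PTPRC were not listed, and other symbols for bovine lysozyme genes were not searched. Whole reads were not recovered from the deposited Cfib values, and their unit is not settled by the sources used here. The depth of these libraries is unknown, so levels are compared between groups and not between genes.

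CD14 had a signal of 6.96, 8.67 and 5.74 in CO Cfib 1, 2 and 3 and of 2.03, 1.84 and 2.16 in PH Cfib 1, 2 and 3. Every CO library stood above every PH library, and the groups were likewise apart for 100% of the listed Cfib genes. The CD14 means of 7.12 ± 1.47 (SD, n = 3) and 2.01 ± 0.160 differed 3.55-fold. Its log2 fold change came to −1.42 (SE 0.14, limma adjusted p = 0.000164). FCER1G had 4.09, 2.01 and 3.14 in CO and 8.29, 7.67 and 6.64 in PH Cfib, a change of 1.09 on the log2 scale (SE 0.20, limma adjusted p = 0.00211). The other ITAM adaptor gene, TYROBP, was listed at 0.373, 0 and 0.249 in CO and had 0.838, 1.24 and 1.07 in PH Cfib, close to the authors' minimum of 1. Its log2 fold change on the log2(value + 1) scale was 0.77 (SE 0.14, limma adjusted p = 0.00210), which understates a low gene, and its means differed 5.05-fold.

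The lysosomal members changed less than FCER1G. CD68 had a signal of 2.34, 2.36 and 2.02 in CO and 3.06, 4.04 and 3.74 in PH Cfib, a change of 0.51 on the log2 scale (SE 0.11, limma adjusted p = 0.00399). LAPTM5 had 1.90, 1.70 and 1.80 in CO and 2.56, 2.79 and 2.83 in PH Cfib, a change of 0.41 on the log2 scale (SE 0.08, limma adjusted p = 0.00231). Summed over the 5 members, the signal was 12.9 to 15.7 in CO and 16.4 to 17.6 in PH Cfib. The CD14-to-CD68 ratio was 2.84 to 3.68 in CO and 0.456 to 0.661 in PH Cfib, while the LAPTM5-to-CD68 ratio ranges overlapped (0.722 to 0.889 against 0.691 to 0.835). The FCER1G-to-CD68 ratio was 0.852 to 1.75 in CO and 1.78 to 2.71 in PH Cfib, and the TYROBP-to-CD68 ratio 0 to 0.160 and 0.274 to 0.308.

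Scaling the Cfib libraries to a common median ratio shifted the log2 fold changes of all listed genes by a median of −0.27. CD14 was then at −1.63, FCER1G at 0.85, TYROBP at 0.67, CD68 at 0.29 and LAPTM5 at 0.21, with no change of direction, and CD68 (limma adjusted p = 0.0374) and LAPTM5 (0.0370) stayed under the threshold. Of all 2115 listed genes 1709 passed it after this scaling.

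**Figure D4:**
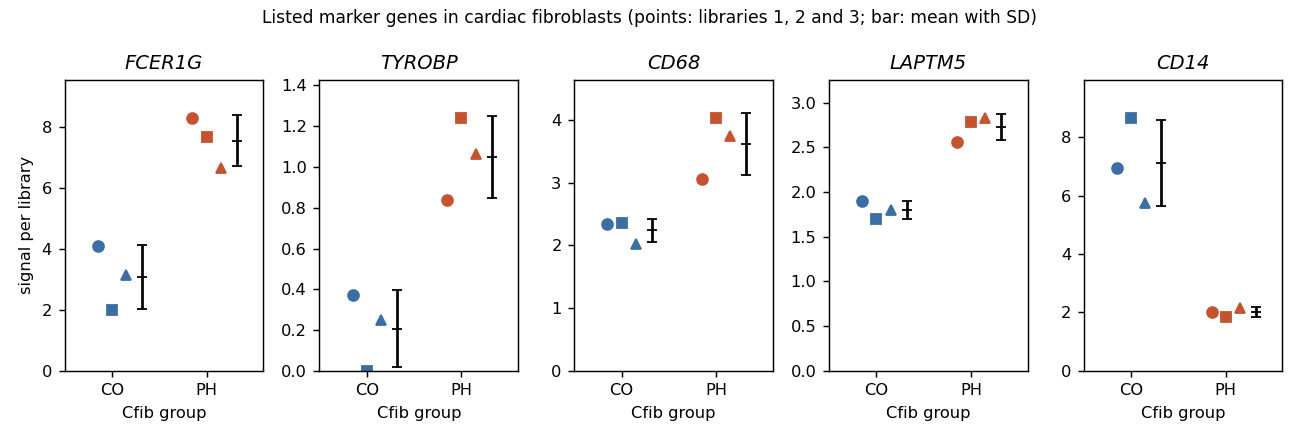
Signal of the 5 listed marker genes in CO (blue) and PH Cfib (red), 1 panel a gene with its own axis from 0, points for libraries 1 (circle), 2 (square) and 3 (triangle) and bars for the mean with its SD. FCER1G, TYROBP, CD68 and LAPTM5 are higher and CD14 is lower in every PH library. The groups are likewise apart for 100% of the listed Cfib genes.

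Of the 139 genes of the myeloid pathway lists 26 were listed for Cfib, 16 higher and 10 lower. This split was close to that of all listed Cfib genes, of which 58.2% passed as higher and 39.4% as lower. The complement genes C1QA and C1QB had a listed value of 0 throughout CO Cfib and PH means of 2.44 ± 0.452 and 1.64 ± 0.0835 (SD, n = 3), and the chemokine genes CCL3 and CCL4, also at 0 in CO Cfib, had 9.46 ± 3.64 and 6.67 ± 1.31. The kinase gene FGR had at most 0.836 in CO and at least 3.13 in PH Cfib. FCGR1A, the high-affinity Fc receptor that signals through the chain encoded by FCER1G, had a log2 fold change of 0.37, which became 0.22 (limma adjusted p = 0.0995) after the median of ratios. All 3 listed leukocyte genes were higher (LCP1 1.02, ITGA4 0.90 and CD37 0.53), as were both transcription factor genes (MAF 0.89 and CEBPA 0.61) and the gelatinase gene MMP9 (2.65). Of the macrophage products 6 of 18 were listed, 5 higher and 1 lower. The product that fell, named after its value was seen, was CHI3L1 (−2.21).

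The pathway of CD14 had 2 listed genes. TLR2, a receptor for bacterial lipoproteins that works with CD14, had 18.0, 14.6 and 17.7 in CO and 9.71, 10.8 and 10.2 in PH Cfib (log2 fold change −0.66), whereas the signaling kinase gene IRAK1 was higher (0.58). The oxidase subunit gene NCF4 was at 8.08 ± 2.15 against 2.32 ± 0.235 (SD, n = 3), the cytokine gene CSF2 at 2.96 to 5.42 in CO against at most 1.03 in PH Cfib, and MERTK, a receptor for dying cells, at 1.23 ± 0.221 against 0.709 ± 0.0788. Of 5 listed lysosomal genes 4 were lower, among them GPNMB (−1.98), NPC2 (−1.57) and CTSK (−1.10). None of the neutrophil, T and NK cell, B cell, mast cell, erythroid and cardiomyocyte markers was listed for Cfib. Of 9 fibroblast markers 3 were listed and higher (POSTN 3.66, COL1A2 1.52), of 9 smooth muscle and pericyte markers 5 were higher (RGS5 1.77, KCNJ8 1.61) and 1 lower, 4 of 6 proliferation markers were lower (CCNB1 −4.18, BUB1 −2.72), and ESAM was the 1 listed endothelial marker (−1.08). Their part in the change of the members was not tested.

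The 5 members listed in both tables can be set side by side. LAPTM5 had a log2 fold change of 5.06 in ARVM and 0.41 in Cfib, TYROBP of 4.89 and 0.77, FCER1G of 3.71 and 1.09, CD68 of 3.53 and 0.51, and CD14 of 2.53 and −1.42. The contrasts differ in species, cells and treatment and the values in their unit, so no test of a difference was made. In Cfib the order of the values depends on the pseudocount, and with 0.1 TYROBP (2.16) lay above FCER1G (1.31), CD68 (0.66), LAPTM5 (0.57) and CD14 (−1.76). CD14 had the smallest rise of the 5 in ARVM and was the 1 that fell in Cfib.

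**Figure D5:**
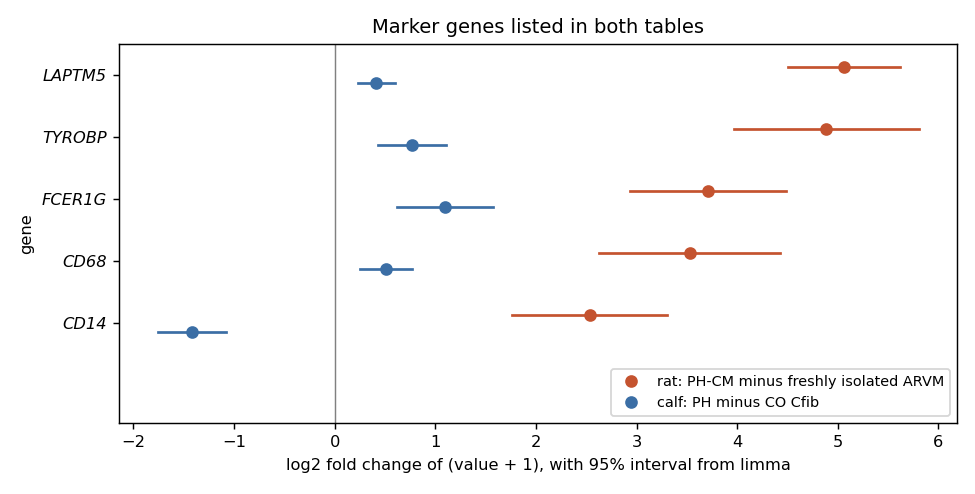
Log2 fold change of (value + 1) with its 95% interval from limma for the 5 marker genes listed in both tables, in rat ARVM (red, PH-CM minus freshly isolated) and calf Cfib (blue, PH minus CO). All red points lie right of 0, and CD14 is the only blue point left of it.

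The genes whose profile over the 6 libraries of a table lay nearest to the median profile of the listed members, by Euclidean distance of centered log2 values, were Hist1h1a (distance 0.30), Prr5 (0.41), Scd2 (0.49), Star (0.52) and Fstl1 (0.52) in ARVM. In Cfib they were NAGLU (0.14), FUCA1 (0.14), OFD1 (0.15), COG3 (0.16) and DAP (0.16). By this measure the genes changed by about as much as the median member, and the likeness rests on 6 libraries in 2 groups.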

How the data were processed

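RNA sequencing of 12 libraries was used, 3 per group. The authors isolated RNA, depleted ribosomal RNA, aligned reads to RN6 or BosTau8 with HISAT2 and StringTie, normalized with DESeq2 and kept genes by expression and p-value. The deposited ARVM signal is a read count divided by 1 size factor per library. Whole reads were recovered (100% of values within 0.01 reads of a multiple of 1 step, which is the smallest value except in ha211, where that is 2 reads), 12122463 to 18842171 per library on listed genes only. No whole reads were recovered from the deposited Cfib signal, and its depth is unknown. The paper names DESeq2 normalization of counts for all libraries, and the unit of the Cfib signal (whether per gene length) is not given in the sources used here.

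Each table was fitted whole in R 4.3.3 by the moderated linear model of limma 3.58.1 with an intensity trend, after log2(value + 1), and p-values were adjusted by Benjamini and Hochberg (threshold 0.05). Alternatives were pseudocounts 0.1 and 10, a minimum mean (50 for ARVM, 5 for Cfib), the median of ratios, no trend, an unequal-variance test, each library left out, edgeR 4.0.16 and DESeq2 1.42.0 on recovered reads, a replicate block and averaged PH libraries. The fits were tested on simulated data holding 200 altered genes (log2 change 2), of which limma found 199 for ARVM (7052 genes, 8 other calls) and 200 for Cfib (2115 genes, 11 other calls). Counting intervals (exact binomial) and floors of 3 reads cover counting error only.

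The members and lists were chosen with earlier results of these data known. All members were named, with up to 3 called genes per pathway list and 2 per cell type list, by largest change with a mean of at least 10 (ARVM) or 1 (Cfib) in the higher group, and the 5 nearest profiles of each table. Python 3.11.15 and RefSeq promoters of GRCr8 were used. No bovine annotation and no protein sequences were used here. The values of 1 gene that the naming rule selects in Cfib are not reported here.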

Additional observations from a re-analysis of the deposited data

How the results depend on the processing

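The 9 ARVM members passed the threshold under all 14 alternatives, with edgeR and DESeq2 included, and the largest adjusted p was 0.0490 for Ptprc with the unequal-variance test. Of all 7052 listed genes 6822 and 6875 passed with pseudocounts of 0.1 and 10. With a library left out 6452 to 6695 did, and with the unequal-variance test 5845, so passing sets the members apart little. The median log2 fold change of the 9 members was 3.34 at a pseudocount of 10 and spanned 4.66 to 5.17 when single libraries were left out. In Cfib a minimum mean of 5 over the 6 libraries left 1 member (FCER1G), 11 pathway list genes and a median of 1.09, since the other members have a lower mean over all 6. With the PH libraries averaged into 1 sample, 2 members and 1038 of all listed genes were called, while the median of the members was 0.51 as before. Fewer calls follow from an arm of 1 sample, which is assumed to vary like the CO libraries, and nothing is read from them. The Cfib median was 0.66 and 0.11 at pseudocounts of 0.1 and 10, 0.29 after the median of ratios, and 0.44 to 0.59 with each library left out. With a replicate block, which the labels give no reason for (correlations of equal numbers 0.258, 0.0312 and 0.259), 5 members and 1983 listed genes were called, so no member's call changed. No paired analysis was possible for ARVM because the groups share no replicate numbers. Among single named genes, 7 of 789 ARVM and 12 of 511 Cfib comparisons lost a call, none turned direction. In ARVM 6 of the 7 were lost with the unequal-variance test and in Cfib 9 of the 12 with averaged PH libraries. The cause of the other losses was not tested. The totals of whole libraries are unknown, and low counts in freshly isolated ARVM limit the fold changes of Aif1 and Ptprc.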
